A study of Mus musculus with 6 samples.

Results

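Expression of 8 genes, 7 receptors for haematopoietic growth factors (Csf1r, Csf2ra, Csf2rb, Il3ra, Csf3r, Kit and Flt3) and the ligand Csf1, was followed across the immune cells of mouse livers. The 8 genes are taken from 32286 gene features counted in each library. The genes were chosen by their UMI counts in these same libraries, the T cells with Csf1 among them, with earlier results known, so their levels and ratios are given as descriptions. Their raw counts of unique molecular identifiers (UMIs, each standing for 1 captured transcript) were read in barcodes with at least 500 genes, at least 1000 gene UMIs and at most 10% mitochondrial UMIs.

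Liver immune cells were profiled by CITE-seq, which reads RNA and antibody tags from the same cell, 30 days after infection with adeno-associated virus (AAV) or mock infection. The AAV-sgBaat group received a vector with a guide RNA against Baat, which conjugates bile acids in hepatocytes. The AAV-sgSCR group received a vector with a control guide, and the mock group no vector. Each group is 1 mRNA library made from a pool of 3 tumor samples, so that no animal can be told from another. For mock livers the sample title reads native while the design text speaks of tumors, and neither strain nor tumor model is given in the labels. T cells (CD45hi CD3+) and the remaining CD45hi cells were sorted from each group, so hepatocytes were left behind and the share of T cells was set at the sort. Baat itself had 1 UMI in kept AAV-sgBaat barcodes, 15 in AAV-sgSCR barcodes and 5 in mock barcodes, and this sort cannot check the targeting.

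After filtering, 7094 AAV-sgBaat, 7332 AAV-sgSCR and 6068 mock barcodes remained, with 46301256, 61084903 and 31256049 gene UMIs and medians of 3811.5, 5911 and 4164 UMIs per barcode. Pairs of libraries shared 10 to 16 barcode sequences. Class names below stand for barcodes that met a gate of marker UMIs holding none of the 8 genes. Nearly all markers outside the gates were higher inside their class than in the rest of both AAV libraries. The exceptions in classes of 20 or more barcodes were Hba-a1 and Hbb-bs in the AAV-sgSCR erythroid gate, whose barcodes are therefore named by the gate genes Klf1, Gata1 and Car1, Sox4 in AAV-sgBaat granule-rich progenitors, and Pglyrp1 in AAV-sgSCR patrolling monocytes. The Kupffer cell gene Vsig4 was at 7.74 CPM (UMIs of the gene per 1000000 gene UMIs of the class) in AAV-sgBaat macrophages and 49.8 CPM in AAV-sgSCR macrophages. Barcodes that met both the T cell gate and a myeloid gate were set apart as mixed. They made up 21.6% of barcodes in AAV-sgBaat, 14.5% in AAV-sgSCR and 0.972% in mock, and they held the largest single portion of Csf1, Csf1r, Csf2ra, Csf2rb and Il3ra UMIs in both AAV libraries. Which cells such UMIs came from was not tested.

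Haematopoietic cytokines steer the survival, division and maturation of blood cells through receptors that appear at set stages. Csf1 signals through the tyrosine kinase Csf1r and keeps monocytes and macrophages alive, and Kit and Flt3 are tyrosine kinases of the same class that bind stem cell factor and Flt3 ligand and mark early progenitors, with Kit persisting on mast cells and Flt3 on dendritic cells. Csf2ra and Il3ra are the chains that bind GM-CSF and IL-3, Csf2rb is the signalling chain they share, and Csf3r binds G-CSF and drives neutrophil output.

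Levels are given in CPM, summed over a class, with exact 95% Poisson intervals. Each log2 ratio has the exact 95% interval of a ratio of counts. These intervals cover counting error only, since barcodes of 1 library are not replicates, and no test between groups exists with 1 library per group. A lower level in a class cannot be told apart from a class of different make-up.

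The stretch of 250 bases before the gene start is shown for the genes whose entry in RefSeq lies wholly outside the annotated gene, to show what motifs stand next to the ligand and the progenitor receptors. An entry existed for 6 of the 8 genes. Sequences are from RefSeq, build GRCm38.p6, read 5′ to 3′ on the strand of the gene, with matches to the searched motifs in capitals.
Csf1 (chr3:107760470-107760719, minus strand): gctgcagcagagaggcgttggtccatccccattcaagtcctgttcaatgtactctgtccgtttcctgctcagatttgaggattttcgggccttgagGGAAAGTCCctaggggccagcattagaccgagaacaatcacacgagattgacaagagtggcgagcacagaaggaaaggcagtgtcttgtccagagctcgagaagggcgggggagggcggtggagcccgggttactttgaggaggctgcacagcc
Kit (chr5:75574737-75574986, plus strand): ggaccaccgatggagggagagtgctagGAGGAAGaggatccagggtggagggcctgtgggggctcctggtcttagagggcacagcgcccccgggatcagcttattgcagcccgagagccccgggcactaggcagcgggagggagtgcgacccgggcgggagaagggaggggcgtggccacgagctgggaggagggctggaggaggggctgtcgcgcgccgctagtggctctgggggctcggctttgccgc
Flt3 (chr5:147400490-147400739, minus strand): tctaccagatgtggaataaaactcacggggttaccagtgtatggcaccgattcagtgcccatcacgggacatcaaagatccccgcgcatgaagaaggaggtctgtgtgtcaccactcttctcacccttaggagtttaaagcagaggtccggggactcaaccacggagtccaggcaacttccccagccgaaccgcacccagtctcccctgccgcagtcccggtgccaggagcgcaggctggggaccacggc
The search on both strands used AGATAA for GATA factors, TGANTCA for AP-1, GAGGAAG for PU.1, TTGCNNAA for C/EBP, TGTGGT for RUNX and GGANTTTCC for NF-kB, and no matches overlapped in the stretches shown. The capitals in Csf1 are an NF-kB match on the reverse strand, starting at position -154 relative to the gene start, a motif held by 1.07% of 32851 promoters of this length. The capitals in Kit are a PU.1 match, a motif that 10.6% of promoters hold. Flt3 held none of the 6 motifs in this window. These matches are descriptions of the sequence, not sites shown to be bound.

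Csf1, the macrophage growth factor, had its highest level in basophils. Basophils had 60 UMIs in 70 AAV-sgBaat barcodes, 41 UMIs in 25 AAV-sgSCR barcodes and 50 UMIs in 9 mock barcodes. This amounts to 287 CPM (219 to 369.6) in AAV-sgBaat, 256 CPM (184 to 347) in AAV-sgSCR and 903 CPM (670 to 1190) in mock. The log2 ratio of AAV-sgBaat over AAV-sgSCR was 0.17 (-0.43 to 0.78), so the AAV libraries did not differ beyond counting error, while the 9 mock basophils lay above both.

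Barcodes that met the basophil and the progenitor gates, called basophil and mast cell precursors, also held Csf1. Their level was 154 CPM in AAV-sgBaat, from 39 UMIs in 27 barcodes, and 42.8 CPM in AAV-sgSCR, from 39 UMIs in 39 barcodes. The log2 ratio was 1.85 (1.17 to 2.53). The summed basophil gene panel (Mcpt8, Prss34, Cpa3, Fcer1a, Ms4a2, Cd200r3, Tpsb2 and Cma1) stood higher too in these AAV-sgBaat barcodes, at 63160 CPM, against 13490 CPM in AAV-sgSCR. Per 100 panel UMIs, Csf1 was at 0.244 UMIs (0.174 to 0.334) in AAV-sgBaat and 0.318 UMIs (0.226 to 0.434) in AAV-sgSCR, and these intervals overlap.

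Mature neutrophils came next, at 16.1 CPM of Csf1 in AAV-sgBaat and 26.6 CPM in AAV-sgSCR, with a log2 ratio of -0.73 (-2.06 to 0.42). Immature neutrophils stood at 2.77 CPM in AAV-sgBaat and 6.01 CPM in AAV-sgSCR, 1 of 7 members at least 2-fold lower there, where 4.36% of genes were. In AAV-sgSCR the level of mature neutrophils did not differ from that of the precursors beyond counting error, and it stood above CD8 T cells by 0.96 on the log2 scale (0.35 to 1.52). Monocytes, macrophages and dendritic cells held at most 9 Csf1 UMIs per class and library, as the plot of levels by class shows. Mature B cells, taken as the level that free RNA leaves in a cell that should lack these genes, held 0 Csf1 UMIs in AAV-sgBaat, 2 in AAV-sgSCR and 27 in mock, or 2.65 CPM in mock.

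**Figure D1:**
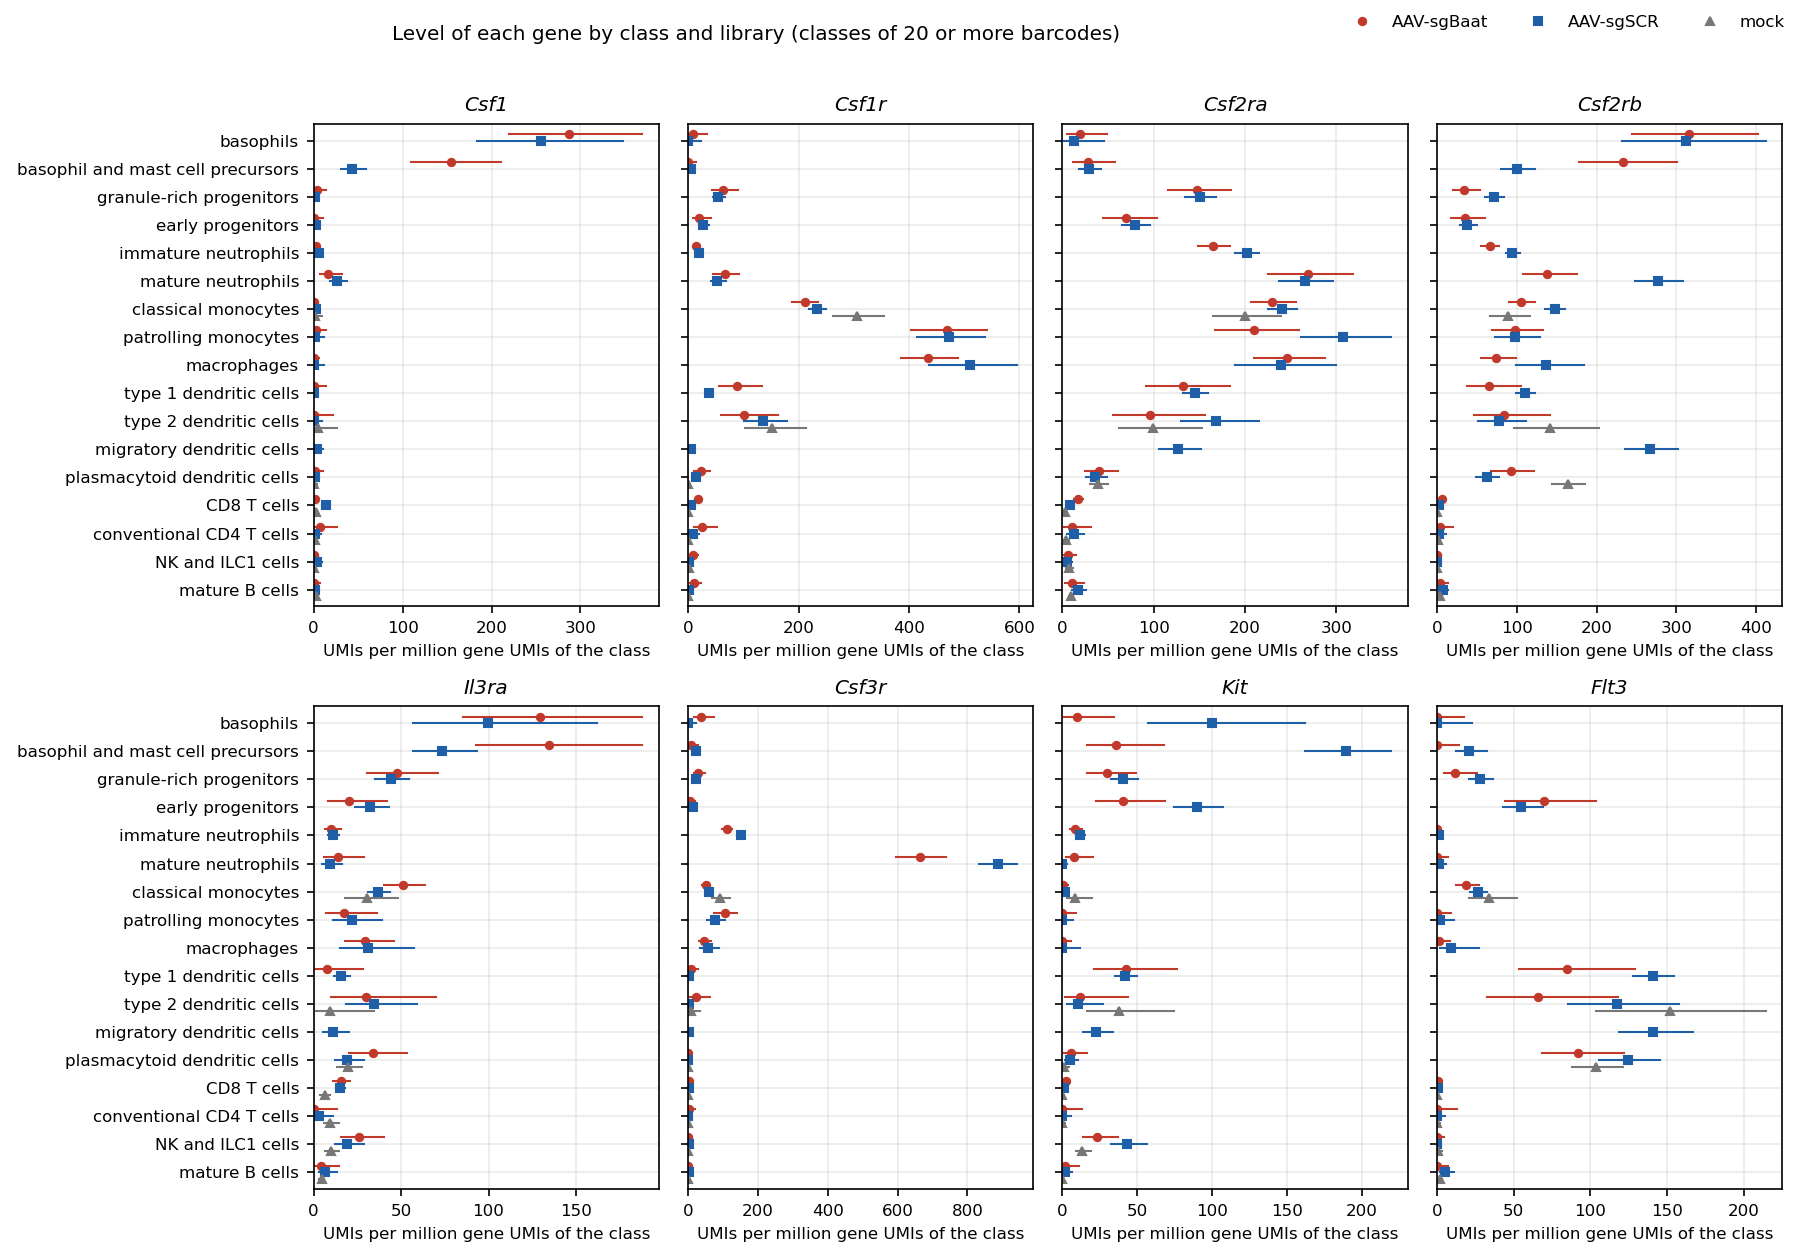
Level in CPM (x axis, linear) for each of the 8 genes in classes of 20 or more barcodes (rows), with AAV-sgBaat as red circles, AAV-sgSCR as blue squares and mock as grey triangles, and lines for exact 95% Poisson intervals. Csf1 peaks in basophils, Csf1r in patrolling monocytes and macrophages, Csf3r in mature neutrophils and, among the classes drawn, Flt3 in dendritic cells.

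CD8 T cells carried far less Csf1 in AAV-sgBaat than in AAV-sgSCR. The 650 AAV-sgBaat CD8 barcodes held 4 Csf1 UMIs, the 1752 AAV-sgSCR barcodes held 138, and the 543 mock barcodes held 10. The levels were 1.38 CPM (0.375 to 3.52) in AAV-sgBaat, 13.7 CPM (11.5 to 16.2) in AAV-sgSCR and 2.83 CPM in mock. The log2 ratio of AAV-sgBaat over AAV-sgSCR was -3.31 (-5.21 to -1.93), and that of AAV-sgSCR over mock was 2.28 (1.35 to 3.37). The AAV-sgSCR library is in both comparisons. The pooled CD8 sets also differ in their mix of the surface tags described below.

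This ratio depends on which barcodes count as T cells. With mixed barcodes kept in the class of their strongest panel, Csf1 stood at 8.02 CPM in AAV-sgBaat and 14.2 CPM in AAV-sgSCR, a log2 ratio of -0.83. With doubled marker thresholds it stood at 4.95 CPM in AAV-sgBaat and 13.7 CPM in AAV-sgSCR, a log2 ratio of -1.47. Basophil panel UMIs in the same CD8 barcodes were at 57.2 and 33.2 CPM in AAV-sgBaat under these settings, against 16.2 CPM under the gates used here. In AAV-sgSCR they were at 20.65 and 12.2 CPM, against 7.54 CPM. Why the ratio moved was not tested. Without the CD8 barcodes that held any basophil panel UMI, 616 AAV-sgBaat barcodes had 0 Csf1 UMIs and 1685 AAV-sgSCR barcodes had 114. With AAV-sgBaat set to a floor of 3 counts over the class, the AAV-sgSCR level was then 10.7-fold higher, counting error of AAV-sgSCR left aside. The exact limits were 9.79 to 14.3 CPM in AAV-sgSCR and 0 to 1.36 CPM in AAV-sgBaat.

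The T cells with Csf1 in AAV-sgSCR were mostly those with the CD90.1 tag. CD90.1 and CD90.2 are allelic forms of Thy1, a surface protein of T cells, and a barcode was called dominant for the form with more tag counts, from 100 counts. Of CD90.1-dominant CD8 T cells, 3 of 287 held a Csf1 UMI in AAV-sgBaat (1.04%, exact 95% interval 0.216 to 3.02%). In AAV-sgSCR 84 of 1079 did (7.79%, 6.26 to 9.55%), and in mock 2 of 12. Of CD90.2-dominant CD8 T cells, 0 of 342 held one in AAV-sgBaat (exact 95% interval 0 to 1.07%). In AAV-sgSCR 6 of 652 did (0.92%, 0.338 to 1.99%), and in mock 4 of 514 (0.778%). Of CD8 T cells below 100 tag counts, called low-tag, 0 of 21 held one in AAV-sgBaat, 1 of 21 in AAV-sgSCR and 2 of 17 in mock. The CD90.2-dominant shares lay in the range of mature B cells, where the share with a Csf1 UMI was 0% in AAV-sgBaat, 0.571% in AAV-sgSCR and 0.977% in mock, at median depths of 2112, 2753.5 and 3451 UMIs. Median depths of the CD8 T cells were 3949.5, 5086 and 5879 UMIs.

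T cells that met none of the CD8, CD4, gamma-delta and Dntt/Arpp21 gates were called other T cells. They include barcodes with both Cd4 and Cd8 UMIs, which the CD4 and CD8 gates leave out. These other T cells showed the same split by tag in AAV-sgSCR. Of those that were CD90.1-dominant, 1 of 549 held a Csf1 UMI in AAV-sgBaat and 7 of 82 in AAV-sgSCR (8.54%, 3.5 to 16.8%). In mock, 13 of 796 other T cells held one: 8 of 729 CD90.2-dominant and 5 of 67 low-tag barcodes (7.46%, 2.47 to 16.6%). Low-tag other T cells held one in 0 of 64 AAV-sgBaat and 0 of 20 AAV-sgSCR barcodes. Csf1 was thus not confined to barcodes with the CD90.1 tag. Among conventional CD4 T cells it was seen in 2 of 83 barcodes in AAV-sgBaat, 1 of 136 in AAV-sgSCR and 3 of 399 in mock. Gamma-delta T cells showed it in 1 of 67 barcodes in AAV-sgBaat, 0 of 73 in AAV-sgSCR and 2 of 91 in mock. The 2 in mock were among its 16 low-tag barcodes. T-like barcodes with the immature T cell genes Dntt and Arpp21, of which AAV-sgBaat had 1092 and AAV-sgSCR 98, held it in 14 AAV-sgBaat barcodes (1.28%) and 1 AAV-sgSCR barcode (1.02%).

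Shares also follow depth. With every barcode thinned to 1000 UMIs, the share of CD8 T cells with Csf1 was 0% in AAV-sgBaat, 1.31% in AAV-sgSCR and 0.368% in mock. At 2000 UMIs, with shallower barcodes left out (579, 1711 and 539 stayed), the shares were 0%, 2.75% and 0.371%. Thinned to 1000, CD90.1-dominant AAV-sgSCR CD8 T cells were at 2.04% and CD90.2-dominant ones at 0.153%. The order of the groups was the same at both depths.

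**Figure D2:**
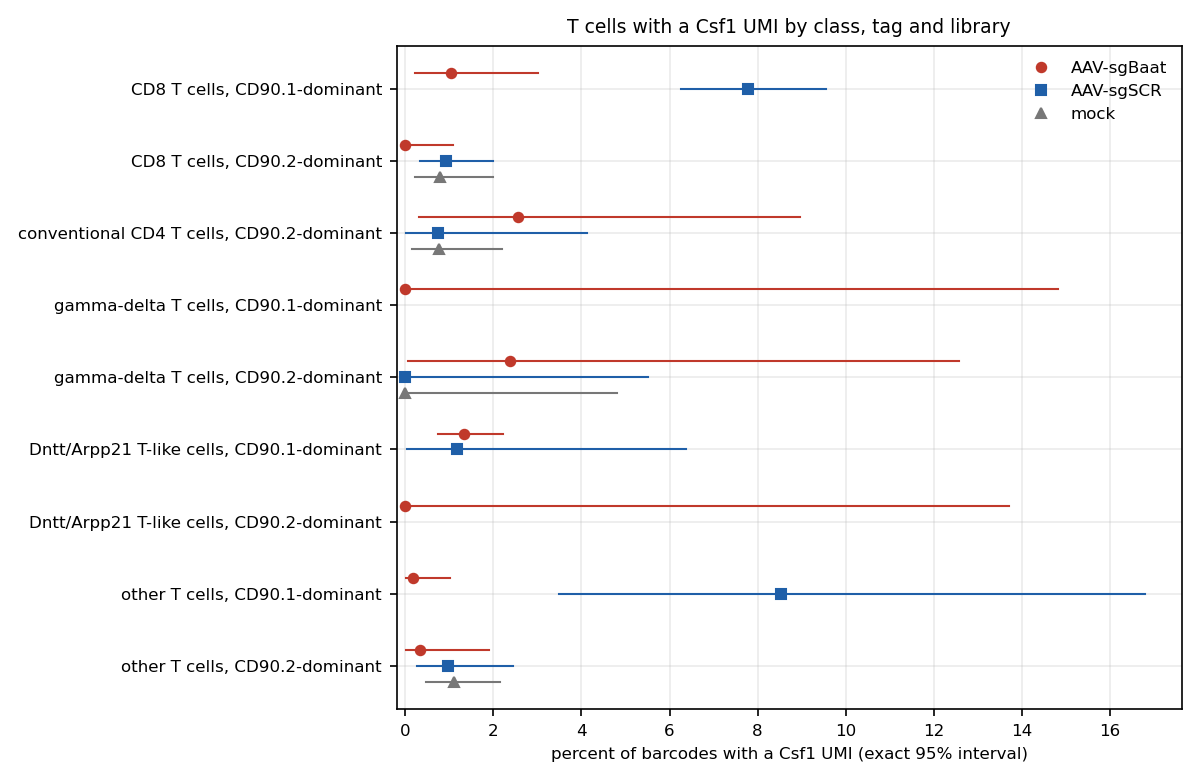
Percent of barcodes with a Csf1 UMI (x axis) by T cell class and dominant CD90 tag (rows of 20 or more barcodes), with AAV-sgBaat as red circles, AAV-sgSCR as blue squares, mock as grey triangles and lines for exact 95% intervals. The CD90.1-dominant CD8 and other T cells of AAV-sgSCR stand at 7.79% and 8.54%, above every other row drawn for that library.

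Within AAV-sgSCR, the 91 CD8 barcodes with a Csf1 UMI were compared with the 1661 without one. Of the 91, 23 held 2 or more Csf1 UMIs and the highest held 15. Their median CD90.1 tag count was 1335, against 616 in the others, and 92.3% were CD90.1-dominant, against 59.9%. Median depths were close, at 5378 UMIs with Csf1 and 5073 without. The basophil panel stood at 21.2 CPM (12 UMIs) with Csf1 and 6.73 CPM without. Across all AAV-sgSCR CD8 T cells there were 182 Csf1 UMIs per 100 panel UMIs (136 to 243.5), against 3.18 (2.27 to 4.33) in AAV-sgSCR basophils. High values also stood in other cells with few panel UMIs. Mock CD8 T cells were at 250 (72.1 to 1092), from 4 panel UMIs. Mature B cells were at 540 (205 to 1796) in mock, from 5 panel UMIs, and at 28.6 (2.90 to 150) in AAV-sgSCR, from 7. The source of Csf1 in CD8 barcodes was not tested by this ratio. In AAV-sgBaat CD8 T cells the same ratio was 8.51 (2.23 to 23.3), from 4 Csf1 UMIs. Its 3 Csf1-positive barcodes held 8 panel UMIs (385 CPM, against 13.5 CPM in the others).

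A list of 23 activation and exhaustion genes, chosen with earlier results of these data known, stood higher in the Csf1-positive AAV-sgSCR CD8 T cells. Of the 23 genes, 12 were at least 2-fold higher and 0 at least 2-fold lower, where 10.2% and 2.14% of 10511 genes were. Their median log2 ratio was 1.16. The cytokine Spp1 stood at 958 CPM with Csf1 and 132.5 CPM without, a log2 ratio of 2.85 (2.71 to 3.00). The chemokine Ccl1 stood at 229 CPM with Csf1 and 27.6 CPM without, and the chemokine Xcl1 at 1433 CPM with and 458 CPM without. The inhibitory receptor gene Pdcd1 stood at 351 CPM with Csf1 and 176.5 CPM without, a log2 ratio of 0.99 (0.77 to 1.21). The cytotoxic granule gene Gzmb was the member whose interval lay below 0, at 164 CPM with and 251.5 CPM without.

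Of 7 genes of naive T cells, 4 were at least 2-fold lower with Csf1 and 0 higher, where 2.14% and 10.2% of genes were. Their median log2 ratio was -1.22. Lef1, a transcription factor of naive T cells, stood at 7.06 CPM with Csf1 and 56.7 CPM without. This side of the contrast followed the tag: among CD90.1-dominant CD8 T cells alone the median of the naive list was 0.53, while that of the activation list was 0.84. Within that set 3 of the 7 naive genes had intervals above 0 and 0 had intervals below 0. Spp1, Ccl1 and Xcl1 kept log2 ratios of 2.17, 2.42 and 1.21, while those of Tox and Lag3 were 0.03 and 0.09.

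The 5 highest ratios over 3718 genes were those of Penk, Unc13b, Ifitm1, Igha and Igkc, and 3 of these came largely from single barcodes. One barcode held 25 of 28 Ifitm1 UMIs, one held 417 of 437 Igha UMIs, and one held 780 of 841 Igkc UMIs. Penk, the gene of the opioid peptide precursor proenkephalin, had 17 of its 32 UMIs in one of 5 barcodes. Unc13b, a vesicle priming factor, was spread more widely, over 16 barcodes with at most 10 UMIs each.

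**Figure D3:**
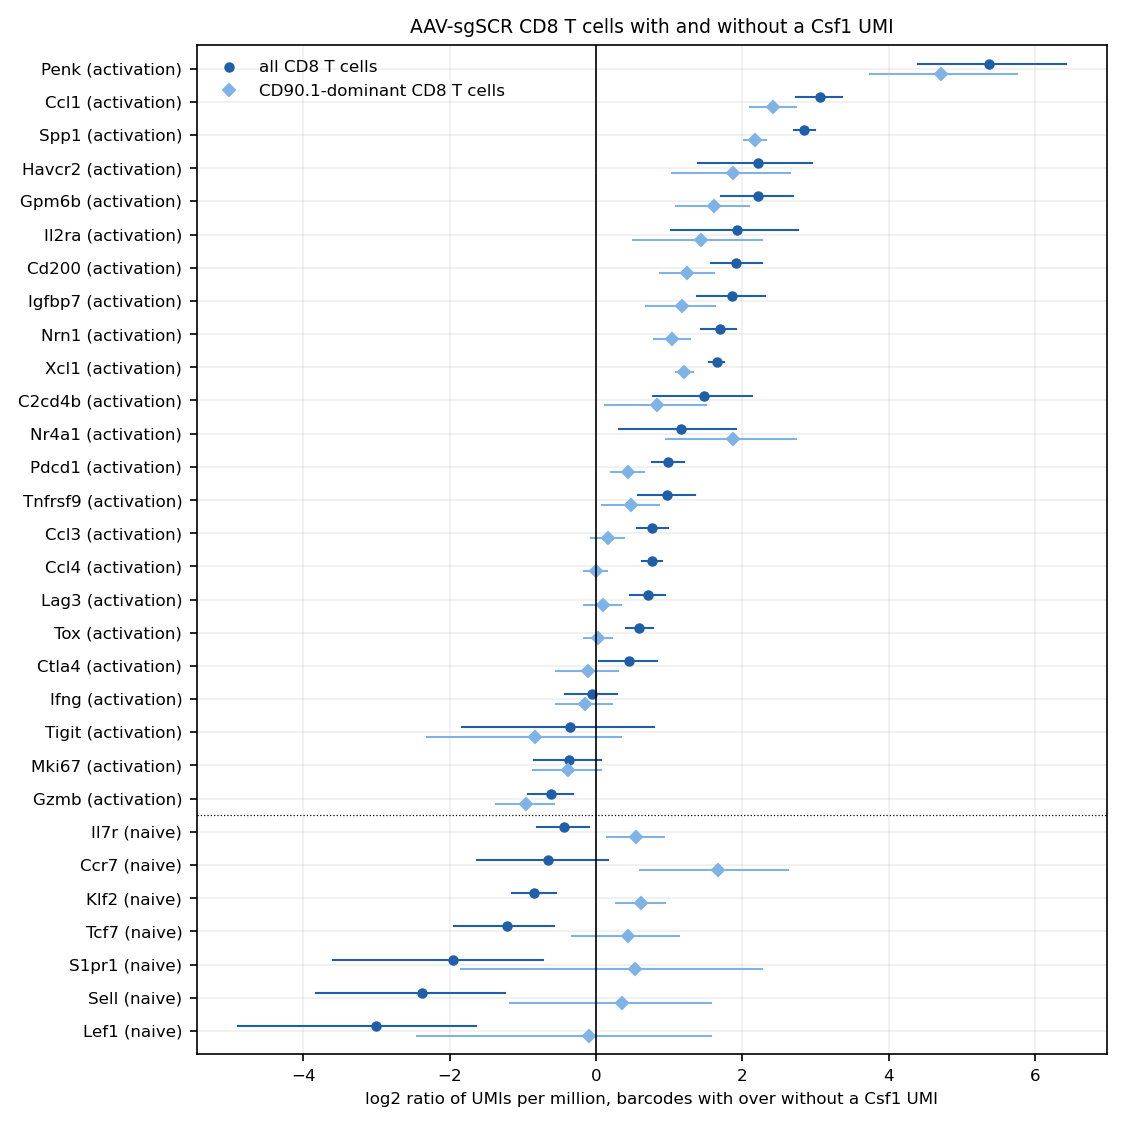
Log2 ratio of CPM in AAV-sgSCR CD8 T cells with over without a Csf1 UMI (x axis) for the activation and naive lists (rows), in all CD8 T cells as dark circles and in CD90.1-dominant ones as light diamonds, with exact 95% intervals. Spp1 and Ccl1 stay to the right in both sets, and most naive genes move from the left to near or above 0 within the CD90.1-dominant set.

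A large portion of Csf1 UMIs stood in barcodes that met both the T cell and the basophil gates. These were 217 barcodes in AAV-sgBaat, 43 in AAV-sgSCR and 12 in mock. They held 340, 124 and 69 Csf1 UMIs, or 60.3%, 20% and 32.9% of each library's total. Their levels were 162, 153 and 463 CPM. Per 100 basophil panel UMIs they held 1.38 Csf1 UMIs in AAV-sgBaat, 0.965 in AAV-sgSCR and 26.2 in mock, against 2.10, 3.18 and 29.1 in basophils of the same libraries. Whether these are joined cells, doublets or basophils with T cell RNA was not tested.

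Csf1r, the receptor for Csf1, marked the mononuclear phagocytes. Patrolling monocytes stood at 469 CPM in AAV-sgBaat (188 UMIs), 473 CPM in AAV-sgSCR (237 UMIs) and 570.5 CPM in 17 mock barcodes. Macrophages stood at 435 CPM in AAV-sgBaat and 511 CPM in AAV-sgSCR. Classical monocytes stood at 211 CPM in AAV-sgBaat, 234 CPM in AAV-sgSCR and 306 CPM in mock. Patrolling monocytes and macrophages did not differ from each other beyond counting error in either AAV library, and both lay above classical monocytes, by 1.04 on the log2 scale for AAV-sgBaat macrophages (0.81 to 1.28).

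Between the AAV libraries the Csf1r intervals in these 3 classes included 0. The AAV-sgBaat over AAV-sgSCR log2 ratios were -0.01 (-0.30 to 0.27) in patrolling monocytes, -0.23 (-0.51 to 0.06) in macrophages and -0.15 (-0.34 to 0.04) in classical monocytes. In patrolling monocytes thinning to 1000 UMIs moved the ratio to 0.75, and doubled marker thresholds moved it to 0.34. None of the members with enough UMIs passed 2-fold in these classes. In classical monocytes 1.64% of genes were at least 2-fold higher and 3.65% lower, in patrolling monocytes 2.64% and 3.92%, and in macrophages 5.11% and 3.85%. Against mock, classical monocytes had log2 ratios of -0.39 (-0.62 to -0.15) for AAV-sgSCR and -0.54 (-0.80 to -0.27) for AAV-sgBaat. Both comparisons rest on the same 67 mock barcodes.

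Among dendritic cells, type 2 cells stood at 102 CPM of Csf1r in AAV-sgBaat, 136 CPM in AAV-sgSCR and 152 CPM in mock. Type 1 dendritic cells were lower, at 89.0 CPM in AAV-sgBaat, 37.5 CPM in AAV-sgSCR and 64.4 CPM in mock. Their log2 ratio of AAV-sgBaat over AAV-sgSCR was 1.25 (0.53 to 1.90), from 27 AAV-sgBaat and 203 AAV-sgSCR barcodes. Csf1r was 1 of 6 members at least 2-fold higher in this class, where 6.62% of genes were. A Csf1r UMI was held by 9 of the 27 AAV-sgBaat barcodes (33.3%) and by 40 of the 203 AAV-sgSCR barcodes (19.7%), and after thinning to 1000 UMIs by 11.1% and 3.45%.

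Csf1r, Csf2ra and Csf2rb were at least 2-fold higher in CD8 T cells of AAV-sgBaat relative to those of AAV-sgSCR, 3 of 6 members with enough UMIs, where 2.8% of genes were. Csf1 was the 1 member at least 2-fold lower, where 4.42% of genes were. Csf1r stood at 17.9 CPM in AAV-sgBaat, 5.56 CPM in AAV-sgSCR and 0 in mock. In mature B cells it stood at 9.99, 0.847 and 0 CPM. Spi1, the gene of the myeloid transcription factor PU.1, was also higher in the AAV-sgBaat CD8 T cells, at 26.8 CPM in AAV-sgBaat and 9.63 CPM in AAV-sgSCR. In AAV-sgSCR over mock CD8 T cells, 6 of 6 members were at least 2-fold higher, where 12.1% of genes were, and in AAV-sgBaat over mock 4 of 4, where 7.64% were. These counts say little about the members. Csf1r, Csf2rb and Csf3r had 0 UMIs in mock CD8 T cells. Where they had enough UMIs it was through the AAV library alone, so they could only be called higher. Free RNA or second cells in these T cell barcodes were not tested.

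Csf2ra, the chain that binds GM-CSF, was spread over neutrophils, monocytes and macrophages. Mature neutrophils stood at 269 CPM in AAV-sgBaat, 266 CPM in AAV-sgSCR and 315 CPM in 9 mock barcodes. Classical monocytes stood at 230 CPM in AAV-sgBaat, 240.3 CPM in AAV-sgSCR and 199.5 CPM in mock, and macrophages at 246 CPM in AAV-sgBaat and 239.8 CPM in AAV-sgSCR. In both AAV libraries no neighbours among the first 7 classes in order differed beyond counting error, but the ends of that order had separate intervals. AAV-sgSCR ran from 307 CPM (261 to 360) in patrolling monocytes to 150 CPM (134 to 168) in granule-rich progenitors. AAV-sgBaat ran from 269 CPM (225 to 318) in mature neutrophils to 132 CPM (91.1 to 184) in type 1 dendritic cells. The AAV-sgBaat over AAV-sgSCR log2 ratios were 0.02 in mature neutrophils, -0.06 (-0.25 to 0.12) in classical monocytes and 0.04 in macrophages. Lower values stood in patrolling monocytes, at 209.6 CPM in AAV-sgBaat and 307 CPM in AAV-sgSCR (-0.55, -0.95 to -0.16), and in immature neutrophils, at 165 CPM in AAV-sgBaat and 202 CPM in AAV-sgSCR (-0.29, -0.47 to -0.11).

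Csf2rb, the shared signalling chain, was highest in basophils. They stood at 316 CPM in AAV-sgBaat, 312 CPM in AAV-sgSCR and 524 CPM in 9 mock barcodes, with a log2 ratio of 0.02 (-0.54 to 0.58) between the AAV libraries. In AAV-sgSCR, basophils, mature neutrophils (277 CPM) and migratory dendritic cells (267 CPM) did not differ beyond counting error. Its near-identical neighbour on chromosome 15, Csf2rb2, is counted apart, so the split of reads between them is uncertain.

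Csf2rb was lower in mature neutrophils of AAV-sgBaat. They stood at 138 CPM (69 UMIs in 177 barcodes) in AAV-sgBaat and 277 CPM (333 UMIs in 351 barcodes) in AAV-sgSCR, a log2 ratio of -1.0 (-1.39 to -0.62), and it was also -1.0 with Csf2rb2 UMIs added. A Csf2rb UMI was held by 29.9% of AAV-sgBaat and 54.1% of AAV-sgSCR barcodes, and by 9.04% and 26.8% after thinning to 1000 UMIs. Classical monocytes stood at 106 CPM in AAV-sgBaat, 148 CPM in AAV-sgSCR and 89.6 CPM in mock, with -0.48 (-0.75 to -0.23) between the AAV libraries. Macrophages stood at 74.3 CPM in AAV-sgBaat and 137 CPM in AAV-sgSCR (-0.88, -1.50 to -0.26).

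Csf2rb was the higher one in AAV-sgBaat in precursors and plasmacytoid dendritic cells. Basophil and mast cell precursors stood at 233 CPM in AAV-sgBaat and 99.97 CPM in AAV-sgSCR (1.22, 0.72 to 1.71). The basophil panel was also higher in these AAV-sgBaat precursors, as given above for Csf1. Plasmacytoid dendritic cells stood at 92.3 CPM in AAV-sgBaat, 62.6 CPM in AAV-sgSCR and 164 CPM in mock. Against mock this was -0.83 (-1.30 to -0.39) for AAV-sgBaat and -1.39 (-1.78 to -1.02) for AAV-sgSCR, where 8.67% of genes were at least 2-fold lower. Csf2rb2 in the same cells was 84.8 CPM in AAV-sgBaat, 61.0 CPM in AAV-sgSCR and 124 CPM in mock.

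Il3ra, the chain that binds IL-3, was led by basophils and their precursors. Basophils stood at 129 CPM in AAV-sgBaat (27 UMIs), 99.9 CPM in AAV-sgSCR (16 UMIs) and 126 CPM in mock (7 UMIs). Precursors, unlike between the libraries in their basophil panel, stood at 134 CPM in AAV-sgBaat and 73.6 CPM in AAV-sgSCR. Their log2 ratio was 0.87 (0.23 to 1.48). Over basophils, mast cells and precursors together the ratio was 0.73 (0.23 to 1.22), but thinning every barcode to 1000 UMIs gave -0.10, so that its direction is not settled. Classical monocytes stood at 51.1 CPM in AAV-sgBaat, 36.9 CPM in AAV-sgSCR and 30.4 CPM in mock, with 0.47 (0.05 to 0.88) between the AAV libraries.

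CD8 T cells held Il3ra at 15.5 CPM in AAV-sgBaat, 15.2 CPM in AAV-sgSCR and 6.22 CPM in mock. Their log2 ratio between the AAV libraries was 0.03 (-0.48 to 0.52). An Il3ra UMI was held by 6.77% of AAV-sgBaat and 8.11% of AAV-sgSCR CD8 T cells, against 0.99% and 2.29% of mature B cells at the lower depths given above. Thinned to 1000 UMIs the shares were 2% and 1.54% in CD8 T cells and 0.495% and 0.571% in mature B cells.

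Csf3r, the G-CSF receptor, was highest in mature neutrophils and lower at the immature stage. Mature neutrophils stood at 664 CPM in AAV-sgBaat (331 UMIs), 886 CPM in AAV-sgSCR (1067 UMIs) and 1416 CPM in 9 mock barcodes. Immature neutrophils stood at 111 CPM in AAV-sgBaat and 151 CPM in AAV-sgSCR. The step between the stages was 2.58 on the log2 scale (2.34 to 2.83) within AAV-sgBaat. Within AAV-sgSCR it was 2.55 (2.41 to 2.69). The log2 ratio of AAV-sgBaat over AAV-sgSCR was -0.42 (-0.60 to -0.24) in mature and -0.45 (-0.67 to -0.24) in immature neutrophils. It moved to -0.10 in mature neutrophils with mixed barcodes kept in the class of their strongest panel. No member passed 2-fold in mature neutrophils, where 5.3% of genes were at least 2-fold higher and 8.83% lower. Csf2rb fell just short of that cut, at 138.4 CPM in AAV-sgBaat and 276.6 CPM in AAV-sgSCR.

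Patrolling monocytes held Csf3r at 105 CPM in AAV-sgBaat and 77.9 CPM in AAV-sgSCR, and classical monocytes at 50.5 CPM in AAV-sgBaat, 59.95 CPM in AAV-sgSCR and 91.3 CPM in mock. CD8 T cells and mature B cells were at or below 4.17 CPM in each library.

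Kit, the receptor for stem cell factor, was lower in AAV-sgBaat than in AAV-sgSCR in early progenitors and in basophil and mast cell precursors. Early progenitors, whose granule gene level was low, stood at 40.7 CPM in AAV-sgBaat (14 UMIs in 21 barcodes) and 89.6 CPM in AAV-sgSCR (122 UMIs in 60 barcodes). The log2 ratio was -1.14 (-2.05 to -0.34). Kit was 1 of 7 members at least 2-fold lower there, where 7.75% of genes were. Gata2 was also at least 2-fold lower in these AAV-sgBaat barcodes. Of the markers outside the gate, Adgrg1 stood at 110 CPM in AAV-sgBaat and 228 CPM in AAV-sgSCR. Sox4 stood at 343 and 265 CPM, and Myb at 177 and 201 CPM. A change of Kit within like early progenitors was not tested. Granule-rich progenitors stood at 29.8 CPM in AAV-sgBaat and 40.6 CPM in AAV-sgSCR (-0.45, -1.35 to 0.36), with median depths of 2318 and 20339.5 UMIs. Csf2rb and Flt3 were the 2 of 7 members at least 2-fold lower in that class, where 4.77% of genes were.

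In basophil and mast cell precursors Kit stood at 35.6 CPM in AAV-sgBaat, from 9 UMIs, and 189 CPM in AAV-sgSCR, from 172 UMIs. The log2 ratio was -2.41 (-3.56 to -1.45). The basophil panel in these barcodes stood at 63160 CPM in AAV-sgBaat and 13490 CPM in AAV-sgSCR. The 2 sets are thus unlike in make-up, and a change of Kit within like cells was not tested. Mast cells were too few to compare, with 3 Kit UMIs in 4 AAV-sgBaat barcodes and 36 in 5 AAV-sgSCR barcodes. Over basophils, mast cells and precursors Kit was 1 of 6 members at least 2-fold lower, where 14.3% of genes were, and Csf1 was 1 of 6 higher, where 5.73% were. The 25 AAV-sgSCR barcodes of the Klf1, Gata1 and Car1 gate stood at 132 CPM of Kit, and AAV-sgBaat had 1 such barcode.

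Kit was also present in lymphoid and dendritic classes. NK and ILC1 cells stood at 23.4 CPM in AAV-sgBaat, 43.3 CPM in AAV-sgSCR and 13.3 CPM in mock. The log2 ratio of AAV-sgBaat over AAV-sgSCR was -0.89 (-1.75 to -0.10), and that of AAV-sgSCR over mock was 1.71 (1.04 to 2.39), where 3.34% of genes were at least 2-fold higher. Type 1 dendritic cells held level amounts, at 42.6 CPM in AAV-sgBaat, 41.7 CPM in AAV-sgSCR and 48.3 CPM in mock.

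Flt3, the receptor for Flt3 ligand, was highest in dendritic cells of both AAV libraries. Type 1 dendritic cells stood at 85.2 CPM in AAV-sgBaat (22 UMIs), 141 CPM in AAV-sgSCR (440 UMIs) and 148 CPM in mock (46 UMIs). The log2 ratio of AAV-sgBaat over AAV-sgSCR was -0.73 (-1.42 to -0.11), and thinning to 1000 UMIs moved it to -2.13 on few UMIs. Type 2 dendritic cells stood at 66.1 CPM in AAV-sgBaat, 117.5 CPM in AAV-sgSCR and 152 CPM in mock. Plasmacytoid dendritic cells stood at 92.3 CPM in AAV-sgBaat, 124 CPM in AAV-sgSCR and 104 CPM in mock. In AAV-sgSCR these 3 classes and the migratory dendritic cells (141 CPM) did not differ between neighbours in the order, and early progenitors lay below them. In AAV-sgBaat early progenitors (69.7 CPM) ranked between type 1 and type 2 dendritic cells and differed from neither beyond counting error.

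Early progenitors stood at 69.7 CPM of Flt3 in AAV-sgBaat and 55.1 CPM in AAV-sgSCR (0.34, -0.39 to 1.02), while Kit was lower in the same AAV-sgBaat cells. The 5 mock early progenitors held 20 Flt3 UMIs, or 370.4 CPM (226 to 572), above each dendritic class of the libraries. Classical monocytes stood at 19.0 CPM in AAV-sgBaat, 26.6 CPM in AAV-sgSCR and 33.8 CPM in mock. In type 2 dendritic cells the log2 ratio of AAV-sgBaat over mock was -1.20 (-2.34 to -0.17), 1 of 4 members at least 2-fold lower, where 9.48% of genes were. UMIs of both Flt3 and Kit were seen in 5 of 27 AAV-sgBaat and 77 of 203 AAV-sgSCR type 1 dendritic cells.

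**Figure D4:**
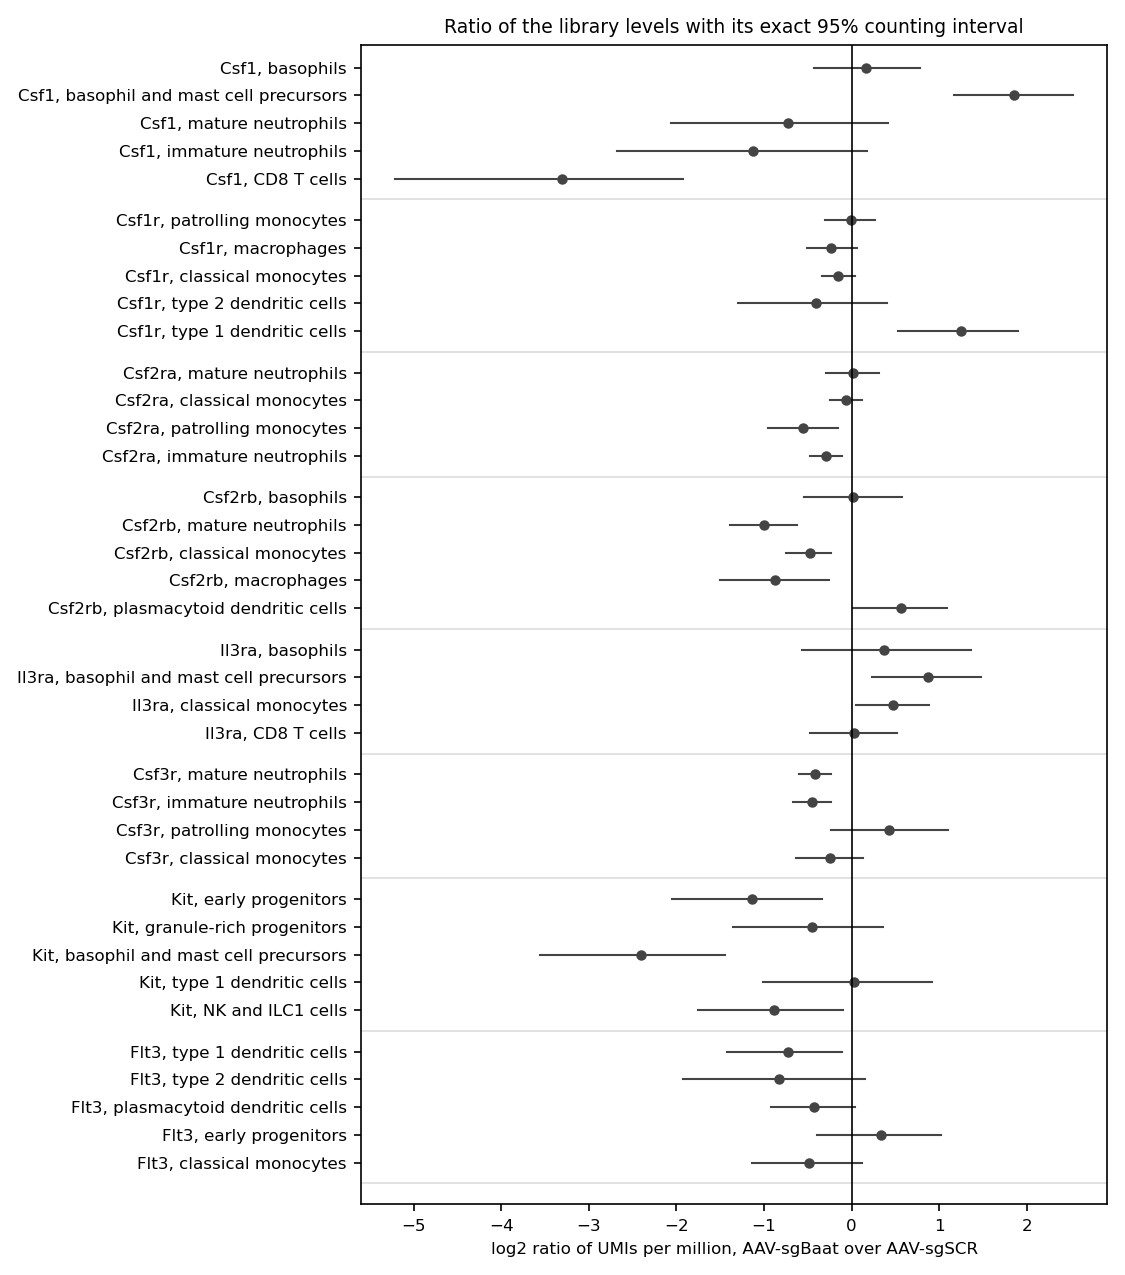
Log2 ratio of CPM, AAV-sgBaat over AAV-sgSCR (x axis), for each gene in the classes where it was highest or is described (rows), with exact 95% counting intervals as lines and the ratio as points. Csf1 in CD8 T cells lies farthest to the left at -3.31, followed by Kit in basophil and mast cell precursors at -2.41, and Csf1 in the same precursors lies farthest to the right at 1.85.

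The ligands of these receptors were scarce in the sorted cells, apart from Csf1 and Flt3l. Csf3, Il3, Il5 and Il34 had at most 3 UMIs in any library. Csf2, the gene of GM-CSF, had 23 UMIs in AAV-sgBaat, 54 in AAV-sgSCR and 57 in mock. Its highest level was in gamma-delta T cells in both AAV libraries. Flt3l had 562 UMIs in AAV-sgBaat, 1222 in AAV-sgSCR and 715 in mock, with 42.6 CPM in AAV-sgBaat, 60.7 CPM in AAV-sgSCR and 44.3 CPM in mock gamma-delta T cells. Kitl had 6, 21 and 6 UMIs.

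Of 14 genes that act downstream of cytokine receptors, 13 had enough UMIs in type 1 dendritic cells, and 5 (Jak2, Stat5a, Socs2, Socs3 and Pim1) were at least 2-fold lower in AAV-sgBaat, where 4.75% of genes were. The median log2 ratio was -0.35 for the list and 0.13 over all genes. Jak2, the kinase bound to the GM-CSF and IL-3 receptors, stood at 23.2 CPM in AAV-sgBaat, from 6 UMIs, and 90.4 CPM in AAV-sgSCR (-1.96, -3.42 to -0.82). Pim1, a target of STAT5, stood at 139 CPM in AAV-sgBaat and 301 CPM in AAV-sgSCR (-1.11, -1.64 to -0.63). The intervals of Stat5a and Socs3 included 0. In classical monocytes 0 of 13 passed 2-fold in either direction. In no other class compared between the AAV libraries was more than 1 gene of this list at least 2-fold lower.

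Members with alike profiles were described over 43 sums of class and library, which share libraries and depth. Csf2ra and Csf2rb correlated at a Pearson r of 0.874, Csf1r and Csf2ra at 0.8, and Csf1 and Csf1r at 0.00469. Over 12049 genes the profile most like that of Csf1r was that of Lrp1 (r = 0.956) with Tgfbi (0.956), the profile most like that of Csf3r was that of Gda (0.943), and the profile most like that of Csf2ra was that of Tnfaip2 (0.924). Clec12a was nearest to Csf2rb (0.92), Tnni2 to Flt3 (0.849), Ilk to Il3ra (0.758), Anxa11os to Csf1 (0.677) and Angpt1 to Kit (0.651). Nothing on shared function follows from these values.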

How the data were processed

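The authors deposited 10x matrices of UMI counts without normalization, produced with Cell Ranger 6.0.1 on mm10 (the version per the file headers, the build per the submitters' processing notes). Antibody tags were read from the same matrices, and 0 columns belong to other samples. The labels' protocols name a v2 kit. The 8 genes and all lists were chosen with earlier results of these data known, and gate thresholds, the split of progenitors and the mixed class were settled after the data were seen.

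Analysis used Python 3.11.15 with numpy 2.4.6, scipy 1.17.1, pandas 2.3.3, scanpy 1.11.5 and matplotlib 3.10.9. Barcodes were gated on summed marker UMIs into 26 classes, with mixed-lineage barcodes set apart. Scrublet's automatic threshold called 1 of 7094 AAV-sgBaat and 1 of 7332 AAV-sgSCR barcodes, so it had not worked, and removal of the highest scores at 0.8% per 1000 barcodes (403 and 430) is an alternative. Progenitors were split at 1000 CPM of granule genes. Counts were summed per class and library, ratios needed 20 barcodes in both libraries, and counts of members past 2-fold used genes with at least 20 UMIs. Intervals are exact, at 95%, by Poisson, Clopper-Pearson or conditional binomial, and a sum of 0 is bounded by 3 counts. Barcodes were thinned at random to 1000 or 2000 UMIs. Likeness is Pearson's r of log2(CPM + 1) over sums of at least 50 barcodes and genes of at least 100 UMIs. Named are all members in each class, the partner lists (ligands and signalling genes), the nearest genes by likeness and the 5 highest ratios with Csf1. The ratio code was tested on simulated data. Promoters are RefSeq entries of GRCm38.p6.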

Additional observations from a re-analysis of the deposited data

How the results depend on the processing

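No paired analysis was possible because each group is 1 library. Over 21 results and 87 alternative values, 77 moved by less than the counting interval, 9 moved by more, and 1 turned round a ratio whose interval excluded 0. With mixed-lineage barcodes kept in the class of their strongest panel, the AAV-sgBaat over AAV-sgSCR log2 ratios were -0.83 for Csf1 in CD8 T cells, 0.10 for Csf1r in macrophages and -0.10 for Csf3r in neutrophils. With doubled marker UMIs they were -1.47 for Csf1 in CD8 T cells and 0.34 for Csf1r in patrolling monocytes. With every barcode thinned to 1000 UMIs they were 0.07 for Csf1r in classical monocytes, 0.75 for Csf1r in patrolling monocytes, -2.13 for Flt3 in type 1 dendritic cells and -0.10 for Il3ra in basophils and mast cells, the one turned round. The Csf1r ratios that also changed sign here had intervals that included 0. The share of CD8 T cells with a Csf1 UMI differed by -2.75 points at 2000 UMIs and by -1.31 points at 1000. Removing the highest Scrublet scores gave -3.23 for Csf1 in CD8 T cells, against -3.31. This cannot decide on doublets, since Scrublet's threshold had not worked and the mixed barcodes were already outside the CD8 class. Leaving out CD8 barcodes with a basophil panel UMI, chosen after seeing the data, gave no ratio since AAV-sgBaat then held 0 Csf1 UMIs. The causes were not tested. The depth of AAV-sgBaat (median 3811.5 UMIs) and classes under 30 barcodes limit what its low genes can show, and 1 library per group leaves animals, vectors and library effects apart from counting error unmeasured.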
